A study of Mus musculus with 6 samples.

Results

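H3K4me3, trimethylation of lysine 4 of histone H3, marks the start sites of active and poised genes. Most marked start sites lie in CpG islands, where the MLL and SET1 methyltransferases act together with a shared core of WDR5, RBBP5, ASH2L and DPY30. At some genes the mark spreads far beyond the start site into a broad domain, and broad domains are known for genes of cell identity and for developmental regulators. Here, broad domains were the H3K4me3 peaks of 5000 bp or more on chromosomes 1 to 19, chosen by the width column of the deposited peak list alone. There were 2081 such domains among 58571 autosomal peaks (3.55%) and 59927 peaks in all.

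The peaks came from CUT&RUN, in which an antibody directs a nuclease to its target and the released DNA is sequenced, in E14 mouse embryonic stem cells grown in serum with LIF. The labels give 6 samples in 3 groups of 2 duplicates. Cells labelled HA-Ash2L knock-in were profiled with anti-H3K4me3 and with anti-HA, and parental cells labelled WT were profiled with anti-HA. All groups received doxycycline for 48 h, which in the HA-Ash2L cells induces an HA-tagged ASH2L transgene, so neither list shows cells without doxycycline and the ASH2L list shows the tagged protein. Per the methods, the HA-Ash2L line was derived from picked colonies chosen for their expression of the tagged protein under doxycycline. Anti-HA in the parental cells was not analysed here. Each list merges its duplicates, so there is no spread between samples. Intervals below are 95% intervals over peaks or genes and cover counting error only, and no difference between classes of peaks was tested across samples. The H3K4me3 list rests on 27328071 tags after filtering, of which 45.7% lie in peaks, and the ASH2L list rests on 25677963 tags, of which 0.398% lie in its 2464 peaks.

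To give the sequence of named domains, the 120-base stretch with the most CpGs outside annotated exons is given for 4 of the widest domains with a coding gene start site, for the widest domain without any start site, and for both domains with more than 1 ASH2L peak. Sequences are from the plus strand of GRCm38.p6, which is the mm10 build of the lists, and capitals mark CpG dinucleotides. The stretches lie at chr13:23573438-23573557 (Hist1 genes), chr2:172550495-172550614 (Tfap2c), chr6:127155091-127155210 (Ccnd2), chr2:119799891-119800010 (Tyro3), chr1:182028749-182028868 (upstream of Enah), chr11:74830791-74830910 (Mnt) and chr1:92907427-92907546 (Dusp28 and Rnpepl1).
Hist1 genes: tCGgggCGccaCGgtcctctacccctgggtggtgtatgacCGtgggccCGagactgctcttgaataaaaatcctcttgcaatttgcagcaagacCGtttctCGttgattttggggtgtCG
Tfap2c: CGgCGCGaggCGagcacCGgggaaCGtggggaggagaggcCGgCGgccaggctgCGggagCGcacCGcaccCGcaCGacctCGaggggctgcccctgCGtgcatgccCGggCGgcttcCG
Ccnd2: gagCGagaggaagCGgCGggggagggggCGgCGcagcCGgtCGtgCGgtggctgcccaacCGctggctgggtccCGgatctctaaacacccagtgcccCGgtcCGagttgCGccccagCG
Tyro3: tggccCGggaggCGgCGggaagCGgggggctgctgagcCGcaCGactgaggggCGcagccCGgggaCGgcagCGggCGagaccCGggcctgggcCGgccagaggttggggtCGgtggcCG
Upstream of Enah: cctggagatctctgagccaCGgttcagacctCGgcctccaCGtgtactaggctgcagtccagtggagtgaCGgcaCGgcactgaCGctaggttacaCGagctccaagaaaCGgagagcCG
Mnt: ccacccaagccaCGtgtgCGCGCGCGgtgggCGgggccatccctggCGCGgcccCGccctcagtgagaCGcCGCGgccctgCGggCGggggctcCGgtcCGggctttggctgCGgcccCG
Dusp28 and Rnpepl1: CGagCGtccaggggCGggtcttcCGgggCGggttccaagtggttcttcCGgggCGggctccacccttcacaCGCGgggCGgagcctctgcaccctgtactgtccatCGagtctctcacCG
The stretches of Tfap2c and Mnt hold 18 CpGs each, that of Tyro3 15, that of Ccnd2 14 and that of Dusp28 and Rnpepl1 12. The stretch upstream of Enah holds 9 and that of the Hist1 genes 8. Each stretch was picked for its CpGs, so its density says nothing about the domains as a class.

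The broad domains covered 12.7 Mb, 11.6% of the sequence in autosomal peaks, and held 15.4% of the tags. Their median width was 5900 bp (quartiles 5371 and 6680 bp), and their median number of tags was 902, against 107 in the 56490 narrower peaks. Tag density, in tags per kb, had a median of 149.5 in the broad domains (interval 148 to 152) and 74.6 in the narrower peaks, but it was already 146 at 3000 to 3999 bp and 148 at 4000 to 4999 bp. Among peaks with a start site, the medians lay closer together, at 156 and 138 tags per kb. With a coding gene start site, the median was 164 at 3000 to 3999 bp and 162 at 4000 to 4999 bp. In the classes from 5000 bp upward it was 155 to 159.9. Fold enrichment, the tags at the summit relative to the background that the peak caller modelled from the same library, went the other way, with medians of 3.99 and 6.48. These values come from the same library as the width and are given as a description. At the limit itself, the narrowest domains inside were those of Akap2 (5000 bp), Abl2 (5001 bp) and Fam13c (5001 bp), and the widest peaks outside, all of 4999 bp, were those of Ddx31 with Gtf3c4, of Btn1a1 and near Gm14270. The former had 899, 545 and 792 tags and the latter 952, 903 and 600.

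From 1000 bp upward, the number of peaks fell with width up to an abrupt end, and no peak of the whole list was wider than 8609 bp. There were 1127 domains of 5000 to 5999 bp, 589 of 6000 to 6999 bp, 300 of 7000 to 7999 bp and 65 of 8000 bp or more. Tag density was nearly level over these classes, with medians between 149 and 151 tags per kb. The median p-value score, which is −10 × log10 of the caller's p, fell over the same classes from 339.6 through 226 and 123 to 67.0, where the cutoff of the list is 50. In the widest class the highest score was 141. The list names no control library, and its background was modelled over 10000 bp of the same library, a span close to the width of the widest domains. Whether still wider domains were split or left out was not tested. When peaks less than 1000 bp apart were joined, 2462 regions of 5000 bp or more were obtained, 498 of them from several peaks, and the widest measured 14939 bp.

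**Figure D1:**
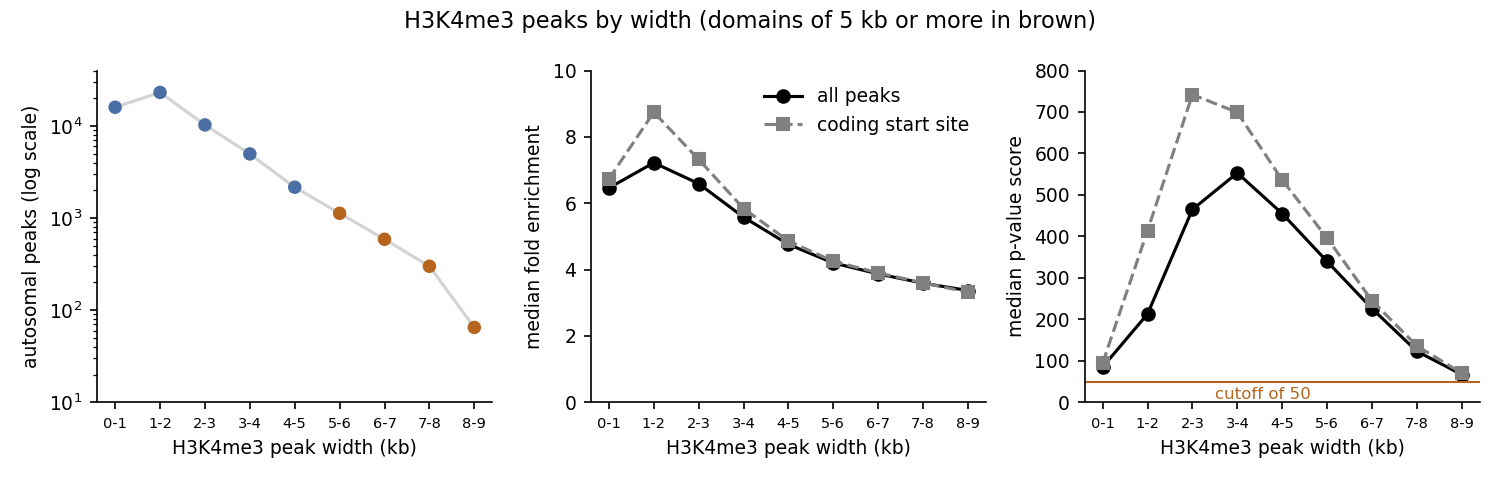
Autosomal H3K4me3 peaks by width in 9 classes of 1 kb: the number of peaks on a log scale (domains of 5 kb or more in brown), the median fold enrichment and the median p-value score, for all peaks and for those with a coding gene start site. Numbers, fold enrichment and score fall together from 4 kb to the widest class, where the median score of all peaks is 67.0 and the cutoff is 50.

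The widest domain, of 8609 bp, lay in the Hist1 cluster at chr13:23569368-23577976 and held the start sites of 5 genes for replication-dependent histones, Hist1h2ad, Hist1h2ae, Hist1h2bf, Hist1h2bg and Hist1h3d. It had 1240 tags, 144 per kb, and a fold enrichment of 2.42, the lowest of all broad domains. Next came the domain of Tfap2c, which encodes the transcription factor AP-2 gamma of trophoblast and germ cells, with 8574 bp at chr2:172543890-172552463 and 179 tags per kb. The domain of Ccnd2, which encodes cyclin D2, was 8573 bp wide at chr6:127147617-127156189, with 140.2 tags per kb. Those of the demethylase gene Kdm3b (8541 bp, chr18:34776228-34784768), of the receptor kinase gene Tyro3 (8534 bp, chr2:119797575-119806108) and of the zinc finger gene Zc3h4 (8522 bp, chr7:16398284-16406805) followed. Pipox, Vangl1, a gene of planar cell polarity, and Ajuba, a LIM protein gene, had domains of 8521, 8502 and 8497 bp. The only one of the 10 widest without a start site was 8465 bp wide at chr1:182026330-182034794, with its summit 10243 bp upstream of Enah, an actin regulator gene. These 10 domains had p-value scores of 50.4 to 66.6, all near the cutoff, and of the 10 only that of Kdm3b overlapped an ASH2L peak.

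**Figure D2:**
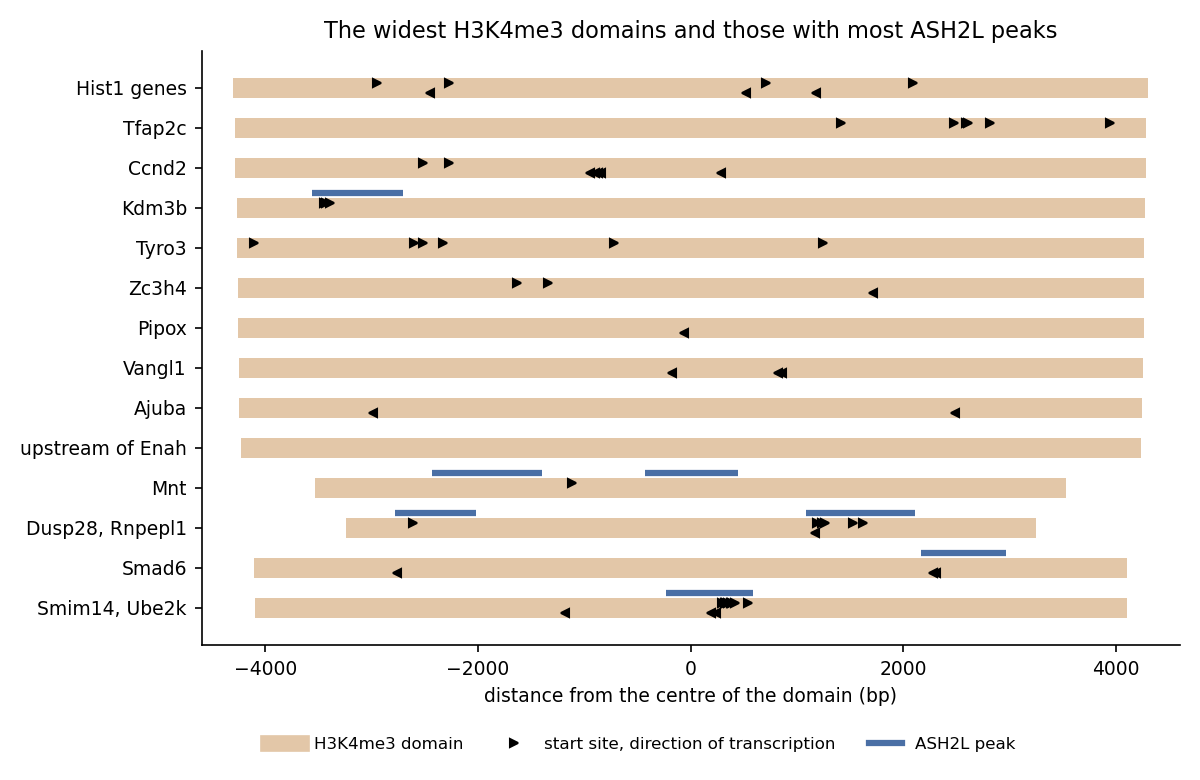
The 10 widest broad domains and the 5 with the most ASH2L peaks (14 in all, since Kdm3b is in both), drawn to scale by distance from the centre of the domain in bp, with annotated start sites, their direction of transcription, and ASH2L peaks. Start sites are spread over several kb in domains such as those of Tyro3 and Smad6, and the ASH2L peaks shown are at most 1038 bp wide.

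The domains with the most tags per kb began with a locus of the non-coding genes AY036118, Gm26917 and Gm42418 at chr17:39842859-39848926, a place known for ribosomal RNA-like sequence. It had 3666 tags, 604 per kb, and the ASH2L list had a peak of 6001 bp with 5016 tags there. The next 4 were much closer to one another, with 272 tags per kb at Sfi1, 261 at Sin3a, which encodes the scaffold of a histone deacetylase complex, 251 at Ing1, which encodes a reader of H3K4me3, and 248 at Gpr108 with Trip10. At the other end, 5 domains with 59.6 to 68.9 tags per kb held no start site, and their nearest start sites belonged to Lhx5, Gpbp1, Gm37234, Meaf6 and Mir6352. The median fold enrichment of the whole list, 6.46, was reached by 11 broad domains. The highest of these was 7.19 at Dixdc1, and Carns1, Arid5a, Rpp14, Txnl1, Zfp819 and Pomgnt1 with Rad54l were also among them, as found after the values were seen.

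A start site of any GENCODE vM21 transcript lay in 1661 of the 2081 broad domains (79.8%, interval 78.0% to 81.5%), against 30.3% of all autosomal peaks and 28.5% of the narrower ones. Peaks of widths just under the limit were much closer, with a start site in 70.6% at 3000 to 3999 bp and 74.8% at 4000 to 4999 bp, against 77.5% at 5000 to 5999 bp. A coding gene start site lay in 1555 broad domains (74.7%, interval 72.8% to 76.5%), against 26.4% of all and 24.7% of narrower peaks. A wide region holds more start sites for its width alone. In a window of equal size for every peak, 500 bp on both sides of the summit, a start site was found at 61.0% of broad domains (interval 58.9% to 63.1%) and 25.4% of narrower peaks (25.1% to 25.8%). Among peaks with a start site inside, the order turned, with 76.5% of broad domains and 88.3% of narrower peaks. A start site inside a narrower peak has less room to lie far from the summit.

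Most broad domains held 1 coding gene (1253) or none (526). Start sites of 2 or more coding genes lay in 302 of them (14.5%), against 2.08% of narrower peaks. Among peaks with any coding gene start site, the shares were 19.4% (interval 17.5% to 21.5%) and 8.44% (7.99% to 8.92%). A wider region holds more genes for its width alone. Broad domains held a mean of 0.911 coding genes over a mean width of 6104 bp, and narrower peaks 0.268 over 1716 bp. With a coding gene start site, the means were 1.22 over 6139 bp and 1.09 over 2634 bp. Where a broad domain held exactly 2 coding genes, 191 of 267 pairs were divergent (71.5%), with a median of 302 bp between their start sites. In narrower peaks 69.4% of such pairs were divergent, with a median of 149.5 bp. Of the 1864 coding genes with a start site in a broad domain, 178 lay wholly inside it (9.55%, interval 8.30% to 11.0%), compared with 300 of 12788 genes in narrower peaks (2.35%, 2.10% to 2.62%). A wider region can hold a longer gene, and genes in broad domains were also somewhat shorter, with a median of 20494 bp against 25899 bp.

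The position around the start site was compared in domains with a single coding gene. In 1253 such broad domains, the H3K4me3 summit lay at a median of 35.0 bp upstream of the nearest start site of the gene (quartiles from 138 bp upstream to 123 bp downstream). The domain extended a median of 2261 bp upstream (quartiles 1599 and 3221) and 3669 bp downstream, into the gene (2805 and 4547). The downstream arm was the longer one in 892 domains (71.2%, interval 68.6% to 73.6%). In narrower peaks it was longer in 73.4% (72.6% to 74.1%), with medians of 968 and 1433 bp. Both arms were longer in the broad domains, which largely restates their selection by width, since the arms add up to the width. The share with the longer arm in the gene was not higher than in narrower peaks. The median ratio of the downstream to the upstream arm was 1.63 in broad domains, 1.44 in narrower peaks and 1.51 at 4000 to 4999 bp.

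**Figure D3:**
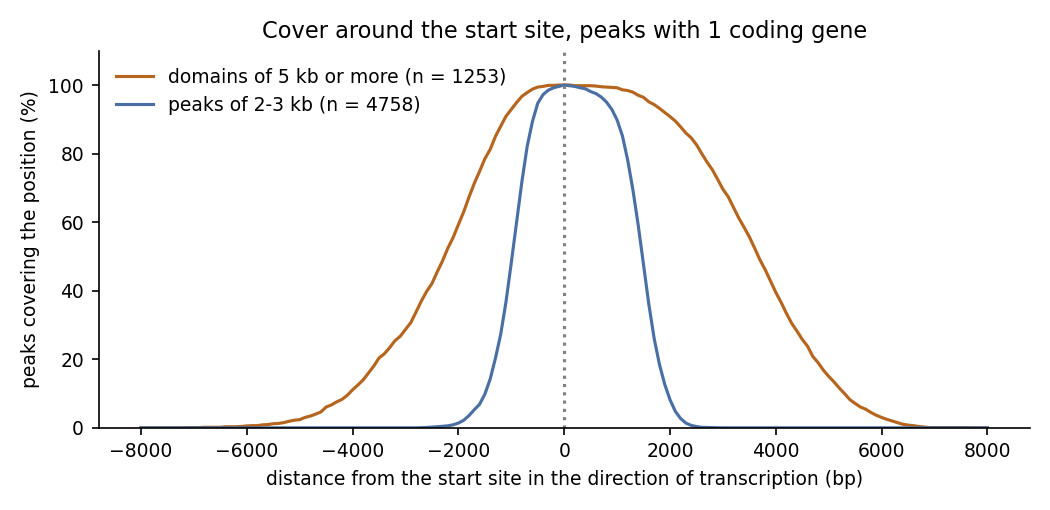
Share of peaks (%) that cover each position around the start site of their single coding gene, in bp along the direction of transcription, for 1253 broad domains and 4758 peaks of 2 to 3 kb. Both curves reach further downstream than upstream. The wider reach of the broad domains on both sides largely follows from their selection by width.

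The sequence of the broad domains was richer in CpGs than that of narrower peaks as a whole. It was not when peaks with a start site, or those without one, were each pooled. The observed to expected ratio of CpGs had a median of 0.421 (interval 0.409 to 0.431) in broad domains and 0.315 (0.313 to 0.316) in narrower peaks. Among peaks with a start site the medians were 0.461 (0.453 to 0.471) and 0.479 (0.476 to 0.482), and among those without one 0.240 and 0.274. The pool of narrower peaks is mixed. With a coding gene start site, their ratio was 0.417 at 1000 to 1999 bp, and 0.525, 0.539 and 0.516 from 2000 to 4999 bp. In the classes from 5000 bp upward it was 0.484, 0.461, 0.436 and 0.452. The ratio is taken over the whole peak, whose width differs between these classes. CpG-rich stretches were defined by windows of 200 bp with over 50% GC and a CpG ratio over 0.6. They covered a median of 26.5% of the length of broad domains with a start site (25.7% to 27.3%) and 34.1% of that of narrower peaks with one (33.8% to 34.5%). In this set, 60.0% of broad domains (interval 57.6% to 62.4%) held 2 or more separate stretches, against 27.0% of narrower peaks (26.4% to 27.7%), which are also shorter. The domains of Tfap2c and Ccnd2 had 7 and 8 such stretches over 61.2% and 64.5% of their length, while that of Kdm3b had 1 over 14.3%.

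The 420 broad domains without an annotated start site differed from the others in density and sequence. Their median was 116 tags per kb (interval 113 to 120.2), above the 64.1 of narrower peaks without a start site and below the 156 of broad domains with one. Midpoints were in introns of coding genes in 187 (44.5%), in exons in 30 (7.14%) and outside coding genes in 203 (48.3%). The median distance from the summit to a coding gene start site was 15892 bp, and 37 lay within 5000 bp. The widest after that upstream of Enah measured 8415 bp at chr1:36982161-36990575 and 8399 bp at chr1:119298589-119306987. The next was 8237 bp wide in an intron of Spred2, a gene for an inhibitor of MAP kinase signalling, at chr11:19982229-19990465. The one of 8236 bp at chr6:122660248-122668483 had its summit 36324 bp from the nearest coding gene start site, that of Dppa3, a gene of pluripotent and germ cells.

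ASH2L, one of the subunits common to the MLL and SET1 complexes, was found in a minority of broad domains. At least 1 ASH2L peak overlapped 211 of 2081 broad domains (10.1%, interval 8.92% to 11.5%), against 3.08% of all autosomal peaks and 2.82% of narrower ones (2.69% to 2.96%). These 213 ASH2L peaks were 8.69% of the autosomal ASH2L list, and their fold enrichment had a median of 4.91, against 5.35 for ASH2L peaks in narrower peaks. With ASH2L peaks at or above the median fold enrichment of their list, the shares fell to 3.41% of broad domains (2.71% to 4.28%) and 1.41% of narrower peaks (1.31% to 1.51%). In the window of 500 bp on both sides of the H3K4me3 summit, ASH2L was present at 167 broad domains (8.02%, 6.93% to 9.27%), against 2.91% of all and 2.72% of narrower peaks. Per length, the classes hardly differed, with 16.8 ASH2L peaks per Mb in broad domains (interval 14.6 to 19.2) and 16.5 in narrower peaks (15.7 to 17.3).

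Among peaks with a coding gene start site, ASH2L overlapped 12.7% of broad domains (interval 11.2% to 14.5%) and 9.58% of narrower peaks (9.10% to 10.1%). Within 500 bp of the summit, the shares were 10.2% (8.82% to 11.8%) and 9.22% (8.75% to 9.71%), and these intervals overlap. With ASH2L peaks at or above the median fold enrichment, 4.37% of these broad domains (3.46% to 5.51%) and 4.75% of these narrower peaks (4.41% to 5.12%) had ASH2L, so the broad domains were no longer higher. Per Mb in this set the order turned, with 21.0 ASH2L peaks in broad domains (18.1 to 24.1) and 36.4 in narrower peaks (34.5 to 38.4). The share of these peaks with ASH2L rose with width from 3.88% at 1000 to 1999 bp to 15.1% at 3000 to 3999 bp (interval 13.9% to 16.4%). It was 14.2% at 4000 to 4999 bp and lower, 11.5%, at 5000 to 5999 bp (9.44% to 13.8%), and then 13.8% at 6000 to 6999 bp, 14.5% at 7000 to 7999 bp and 15.7% in the 51 domains of 8000 bp or more (interval 8.17% to 28.0%). Within 500 bp of the summit, the share was 14.4% at 3000 to 3999 bp (13.2% to 15.6%), 13.1% at 4000 to 4999 bp, and 9.73%, 10.5%, 11.5% and 9.80% in the 4 broad classes. Of these, the interval at 5000 to 5999 bp does not overlap that at 3000 to 3999 bp, and those of the 3 wider classes do.

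**Figure D4:**
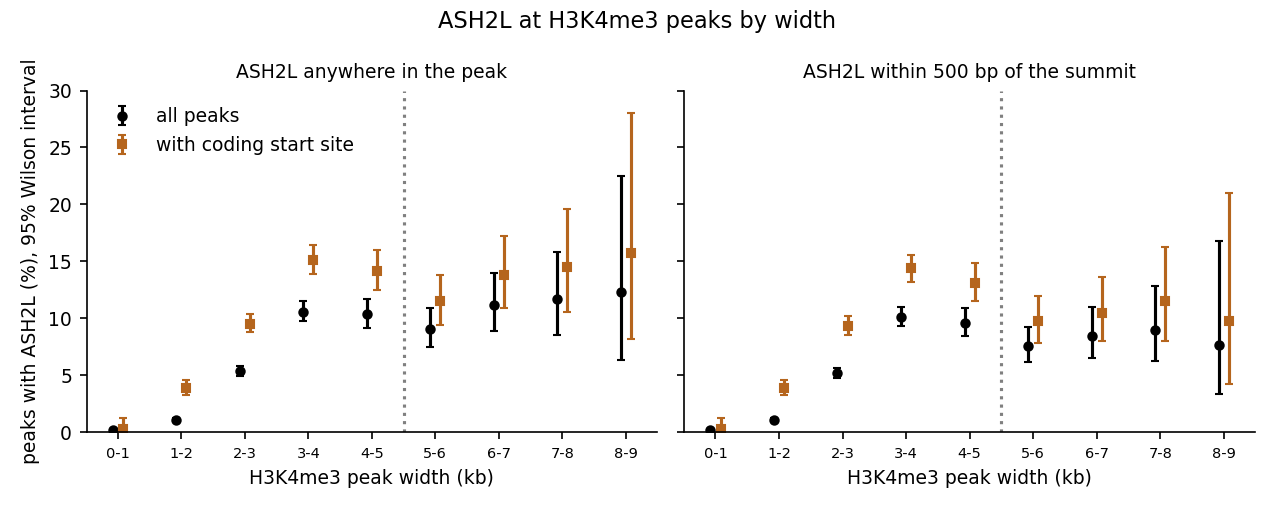
Share of H3K4me3 peaks with ASH2L (%) by peak width in kb, over the whole peak and within 500 bp of its summit, for all peaks and for those with a coding gene start site. Points are shares, bars are 95% Wilson intervals and the dotted line is the limit of 5 kb. With a coding gene start site, the shares are 15.1% of whole peaks and 14.4% of summit windows at 3 to 4 kb, and 11.5% and 9.73% at 5 to 6 kb.

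Within the broad domains with a coding gene start site, the share with ASH2L was higher where CpGs and tags were denser. By quartile of the CpG ratio it was 6.68%, 9.77%, 16.0% and 18.5%, or 26, 38, 62 and 72 domains of 388 or 389 each. By quartile of tags per kb it was 5.40%, 12.1%, 16.8% and 16.7%. By quartile of width it was 9.77%, 12.6%, 13.9% and 14.7%, with intervals that overlap from the lowest quartile (7.20% to 13.1%) to the highest (11.5% to 18.6%). Without a start site, 8 of 420 broad domains had ASH2L (1.90%, 0.968% to 3.71%). Of the 213 ASH2L peaks in broad domains, 174 had their midpoint within 500 bp of a start site (81.7%, 76.0% to 86.3%), close to the share in narrower peaks, 1277 of 1597 (77.9% to 81.9%), and their median width was 851 bp. A smaller number, 134, lay within 500 bp of the H3K4me3 summit (62.9%, 56.2% to 69.1%), compared with 87.2% of the ASH2L peaks in narrower peaks. A wider peak leaves more room for ASH2L away from its summit, so these shares are not free of width.

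More than 1 ASH2L peak was found in 2 broad domains. At Mnt, which encodes a repressor of the MAX network, the domain of 7067 bp had ASH2L peaks of 1038 and 879 bp with 52 and 42 tags, on both sides of the start site. At Dusp28 and Rnpepl1 the domain of 6491 bp had ASH2L peaks of 769 and 1024 bp with 38 and 46 tags, the former 210 bp from a start site and the latter 18 bp. The other widest domains with ASH2L were those of Kdm3b, of Smad6, which encodes an inhibitor of BMP signalling, and of Smim14 with Ube2k. In the Smad6 domain, the ASH2L peak of 39 tags was 3684 bp from the H3K4me3 summit and 253 bp from a start site. The 7 ASH2L peaks in these 5 domains had p-value scores of 52.7 to 85.9, over a cutoff of 50.

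Coding genes had a start site in a broad domain in 1864 of 20807 cases, 8.96%, and in any H3K4me3 peak in 68.7%. Against this background, gene lists differed widely. Over all annotated genes, the highest share was that of SR and hnRNP splicing factors, of which 17 of 32 lay in broad domains (53.1%, interval 36.4% to 69.1%). They included Srsf2 (7880 bp), Hnrnpa1 (7816 bp), Srsf10 (7624 bp) and Hnrnpd (7537 bp). Cytosolic ribosomal protein genes followed, with 39 of 81 (48.1%, 37.6% to 58.9%), among them Rps28 (7745 bp), Rpl17 (7599 bp), Rpl11 (7368 bp) and Rps20 (7229 bp). Among heat shock and chaperone genes 15 of 69 did so (21.7%, 13.6% to 32.8%), including Hspa4, the divergent pair Hspd1 and Hspe1 in one domain of 8103 bp, and Hspa5. Subunits of the proteasome (3 of 38, 7.89%) and of oxidative phosphorylation (8 of 77, 10.4%) were near the background. Lists of mostly widely used genes thus ranged from the highest shares to the background.

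Some chromatin regulators of the H3K4me3 pathway were themselves in broad domains. Of 16 MLL and SET1 complex genes, 7 had one (43.8%, 23.1% to 66.8%). These were the methyltransferase genes Kmt2a (5266 bp), Kmt2c (5584 bp) and Kmt2d (6455 bp), the core genes Wdr5 (6214 bp) and Rbbp5 (5338 bp), Cxxc1 (6015 bp), whose product binds unmethylated CpGs, and Pagr1a (5662 bp). ASH2L was in 1 of these 7 domains, that of Wdr5, against 10.1% of all broad domains. Of 14 DNA methylation and TET genes, 6 had a broad domain (42.9%, 21.4% to 67.4%), Mbd3 (7646 bp), Tet2 (6815 bp), Dnmt3b (6158 bp), Dnmt3l (5726 bp), Dnmt3a with domains of 5525 and 5097 bp, and Uhrf1 (5043 bp). Of 4 H3K4 demethylase genes, Kdm1a had one (5979 bp), with ASH2L. Polycomb complex genes were near the background with 3 of 29 (10.3%, 3.58% to 26.4%), namely Rybp, Eed and Rbbp4.

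Of 23 genes listed as pluripotency factors, 9 were in broad domains (39.1%, 22.2% to 59.2%). The name of the list is a loose one for Tead4, its widest member and the only 1 of the 9 with ASH2L. The widest were those of Tead4 (8010 bp, with ASH2L), Klf2 (7918 bp), Tcl1 (6814 bp) and Rif1 (6650 bp), and the others were Tfcp2l1, Prdm14, Klf4, Klf5 and Tbx3. Ligands and inhibitors of the Nodal, BMP and FGF pathways, listed together with the Id genes, gave 10 of 27 (37.0%, 21.5% to 55.8%). They included Smad6 (8208 bp), Id3 (6843 bp), Gdf3 (6635 bp) and Lefty1 (6488 bp). G1 regulators gave 7 of 25 (28.0%, 14.3% to 47.6%), which were Ccnd2, E2f4, Ccnd1, Myc, E2f1, Cdk6 and E2f3. Myc, a driver of growth and proliferation, had 7438 bp and 217 tags per kb.

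Lineage regulators were mixed. Gata factors had 2 of 5 (Gata6 and Gata2, 11.8% to 76.9%) and Sox factors 4 of 18 (Sox11, Sox15, Sox9 and Sox10), or 22.2% with an interval from just above the background to 45.2%. T-box factors had 3 of 15 (Eomes, Tbx2 and Tbx3), with an interval of 7.05% to 45.2% that holds the background of 8.96%. Forkhead factors had 9 of 41, or 22.0% with an interval from above the background to 36.7%, the widest at Foxh1 (7987 bp), a partner of SMAD proteins, and at Foxp4, Foxp1 and Foxb2. Homeodomain factors outside the Hox clusters, listed together with all Pax genes, had 13 of 82 (15.9%, 9.51% to 25.3%). The widest were at Nkx3-2 (8047 bp), Nkx6-2, Gsx1 and Irx5. The widest 3 had 105, 116 and 113 tags per kb, below the median of all broad domains. Hox cluster genes gave 3 of 39 (7.69%), Hoxd11 (5505 bp) and the pair Hoxb7 and Hoxb8 (5077 bp), with 95.2 and 85.9 tags per kb. Wnt ligands and Frizzled receptors gave 4 of 29 (Fzd10, Fzd2, Fzd8 and Wnt6), with an interval of 5.50% to 30.6% that also holds the background. Imprinted genes, which here include non-coding ones, gave 6 of 29 (20.7%, 9.85% to 38.4%), with Gnas, Nespas, Mest and Peg3 among them, and Zfp genes gave 35 of 385 (9.09%), with the widest domains at Zfp503 (7724 bp) and Zfp568 (7646 bp).

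Few genes of differentiated tissues were listed in broad domains, and most of the olfactory receptor and keratin genes had no listed peak of any width. Broad domains held 0 of 1086 olfactory receptor genes, which allows a share of up to 0.352%, and 0 of 53 keratin genes, which allows up to 6.76%. Among 29 genes of terminal differentiation, 1 was in a broad domain (3.45%, 0.611% to 17.2%, an interval that holds the background of 8.96%). It was Neurod1 (6813 bp), which encodes a neurogenic transcription factor. Over all lists, 204 genes were in broad domains, and 22 of these genes had ASH2L in the domain (10.8%), near the 10.1% of all broad domains and the 12.7% of those with a coding gene start site. Per list the counts were small and untested, among them 0 of 13 for homeodomain and Pax factors, 0 of 7 for G1 regulators, 1 of 35 for Zfp genes, 4 of 17 for splicing factors and 3 of 9 for forkhead factors.

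**Figure D5:**
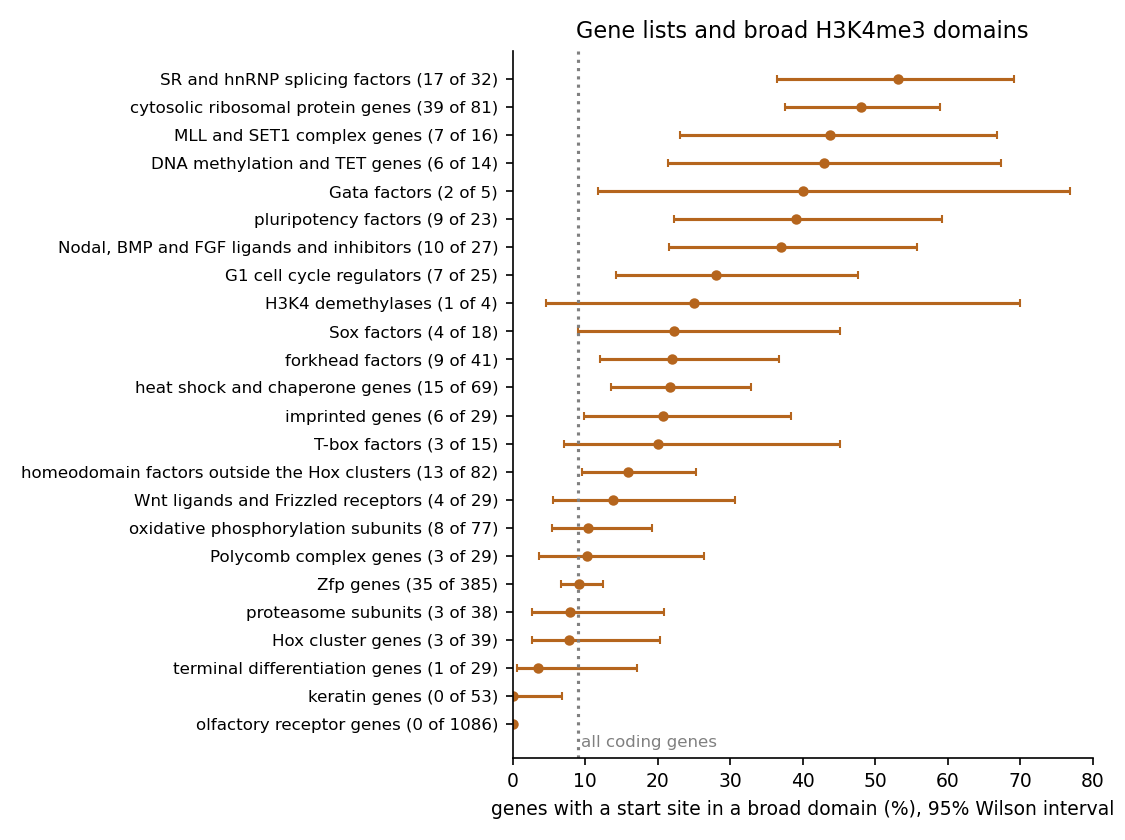
Share of the genes of each list with a start site in a broad domain (%), with 95% Wilson intervals and, in brackets, the number of genes in broad domains and the number annotated on autosomes. The dotted line is the share of all coding genes, 8.96%; splicing factors and ribosomal protein genes lie highest and olfactory receptor genes at 0.

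A missing broad domain in these lists does not show a narrow or absent mark. No H3K4me3 peak of any width was listed at the start sites of 28 of the 81 ribosomal protein genes, most of which are used in every cell although the list also holds tissue-restricted paralogues such as Rpl3l, and at 9 of the 23 pluripotency factors, including Nanog, Sox2 and Pou5f1, which define embryonic stem cells. The interval free of peaks around the start sites of these 9 genes had a median of 29231 bp, and for the 28 ribosomal protein genes it had a median of 22506 bp and was 9000 bp or more at 27. Of the ribosomal protein genes with any listed peak, 73.6% were in a broad domain, more than the 65.4% of the splicing factors, and of the pluripotency factors 64.3%, against 1864 of the 14287 coding genes with a listed peak. Whether these start sites lie in domains too wide for the peak calling was not tested.

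Small RNA genes, which often lie in clusters, were also found in broad domains. By annotated start, which for miRNAs is that of the hairpin and not of the primary transcript, 85 of the 356 miRNA genes in any peak lay in broad domains (23.9%), and so did 70 of the 128 snoRNA genes (54.7%), against 1864 of the 14287 coding genes with a listed peak. Of all annotated genes of these kinds, the shares were 4.14% of 2054 miRNA and 4.85% of 1442 snoRNA genes, below the 8.96% of coding genes. The domain with the most genes, 12, was at Zbtb37 and Gas5, a host gene of snoRNAs, on chr1:161032784-161038576 and was 5793 bp wide. The domain with 9 genes was the Mir290 to Mir295 cluster of embryonic stem cells at chr7:3216047-3221490, 5444 bp wide, with 179 tags per kb. After the Hist1 domain came that of Rpl4 and Zwilch, with 7 genes, 4 annotated as Gm22455, Gm22571, Gm23136 and Gm23344, and Snord16a, and that of the Mir17hg cluster at chr14:115039985-115045221, with 7 genes and 106 tags per kb. At least 3 miRNA genes lay in 5 broad domains, and RefSeq held mature sequences for 23 of their 25 miRNA genes. Seeds, bases 2 to 8, were shared within and between these domains and are in capitals below, for the miRNAs with a seed found at least 3 times.
miR-291a-3p: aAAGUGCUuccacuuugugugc
miR-294-3p: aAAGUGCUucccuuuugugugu
miR-295-3p: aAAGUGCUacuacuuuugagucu
miR-290a-5p: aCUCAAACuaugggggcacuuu
miR-292a-5p: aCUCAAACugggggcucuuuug
miR-293-5p: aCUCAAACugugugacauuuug
miR-17-5p: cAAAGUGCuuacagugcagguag
miR-20a-5p: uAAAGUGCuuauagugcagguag
miR-93-5p: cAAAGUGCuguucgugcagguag
miR-106b-5p: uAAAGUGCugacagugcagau
The first 6 are from the Mir290 to Mir295 domain. The other 4, with a seed that is that of miR-291a-3p shifted by a base, are from the Mir17hg domain and from a domain of 6314 bp on chromosome 5 that holds Mir25, Mir93 and Mir106b.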

How the data were processed

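The labels give 6 CUT&RUN samples of E14 cells in 3 groups of 2. Per the methods and file headers, the authors mapped reads to mm10 with Bowtie2, merged duplicates and called peaks with MACS (1.4.3 in the headers, an earlier release in the methods) without a control library, at a p-value cutoff of 1e-05 and with 1 tag kept per position. The deposited tag counts are whole numbers of tags per peak, not normalized. The score that the authors deposited for each peak equals −10 × log10 of its p-value, and the deposited fold enrichment is a ratio to background of the same library. Tag sizes in the headers, 142 bp for H3K4me3 and 151 bp for ASH2L, exceed the fragment limit in the methods, so it is unclear which fragments were counted.

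Autosomal H3K4me3 peaks of 5000 bp or more were compared with narrower ones. Start sites came from GENCODE vM21, sequence and CpGs from GRCm38.p6. Overlap needed 1 bp. Peaks are not replicates, so shares carry Wilson intervals, medians order-statistic intervals and rates per Mb exact Poisson intervals, and no test was made. The members and the 24 gene lists were chosen with earlier results of these data known. Named were the 10 widest domains, the 5 with most and the 5 with fewest tags per kb, the 5 with most genes, the 5 with most ASH2L peaks, the 5 widest without a start site, the 3 nearest the limit on each side and up to 4 members per list, except where more members are given. A few items that this rule selects are not reported here. Domains take the names of their coding genes, otherwise of other genes inside or of the nearest start site. Other width limits, joined peaks, fold limits, transcripts, overlaps and windows were tried. Overlap and sequence procedures were tested on simulated data. Software was samtools 1.23.1, pysam 0.24.0, scipy 1.17.1, matplotlib 3.10.9, pandas 2.3.3 and numpy 2.4.6 under Python 3.11.15.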

Additional observations from a re-analysis of the deposited data

Results flagged for a closer look

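Broad H3K4me3 peaks outside the autosomes were in the list but in no comparison above. Chromosome X had 32 peaks of 5000 bp or more among its 1349 peaks (2.37%, interval 1.69% to 3.33%), with a median of 125 tags per kb. The widest lay at Ddx3x (7308 bp), Hcfc1 (7255 bp) and Tsix (7253 bp), and 1 held the Mir106a cluster (6765 bp). The mitochondrial chromosome had 1 peak, of 6692 bp with 3890 tags. In the ASH2L list, 3 autosomal peaks were 5000 bp or wider. At Gm42418 on chromosome 17 the ASH2L peak had 5016 tags and lay in the broad domain with the most tags per kb, and the others, of 5667 bp at Sfi1 and of 6177 bp, both on chromosome 11, overlapped no H3K4me3 peak. Whether the sequence at these places collects tags with any antibody was not tested.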

How the results depend on the processing

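No paired analysis was possible because each list merges its duplicates. For 8 results, 51 values were computed under 10 alternatives, 1 of them (without the domain at Gm42418) chosen after seeing the data, and 25 stayed within the interval of the reported value (for the number of domains, within 1.5 times). With a limit of 4000 bp there were 4244 domains, 77.3% with a start site, 1.14 genes per domain, 19.6 ASH2L peaks per Mb and a CpG ratio of 0.435. With 6000 bp there were 954 domains, 82.6% with a start site and 1.29 genes, against 1.22 at 5000 bp. With peaks joined, 77.9% had a start site, at 143 tags per kb and a CpG ratio of 0.403. Fold enrichment at or above its median left 11 domains, of which 81.8% had a start site, with 1.09 genes per domain, 132 tags per kb and a CpG ratio of 0.323. ASH2L was in 18.2% of them, over the whole domain and within 500 bp of the summit, or 33.8 per Mb. These few domains limit the precision (18.2%, interval 5.14% to 47.7%). Protein-coding transcripts gave a start site in 71.7% and 0.862 genes per domain, and RefSeq transcripts 76.8% and 1.11. With ASH2L peaks at or above their median fold enrichment of 5.37, 3.41% of domains had ASH2L, 2.88% within 500 bp of the summit, or 5.59 per Mb. Without single-sample values, reproducibility between duplicates could not be assessed, and a missing peak at this depth does not show that the mark or ASH2L is absent.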
